A study of Homo sapiens with 24 samples.

Results

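The DEAD-box and DEAH-box RNA helicases were followed in K562, an established human leukaemia cell line with erythroid features. They were taken as the protein-coding genes of GENCODE 29 whose symbol starts with DDX or DHX and a number. Of the 12285 genes in the FPKM table (read fragments scaled by transcript length and library size), 48 were members, 33 named DDX and 15 named DHX. GENCODE 29 holds 55 such protein-coding genes, and the other 7 were not analysed here, among them the viral RNA sensors DDX58, DHX58 and DDX60 and the germline helicases DDX4, DDX25 and DDX43. The 2 genes of the table with such a name that are not protein coding, DDX11L2 and DDX12P, were left out.

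The cells were grown in RPMI medium with 10% bovine calf serum, and a population of similar size was separated by centrifugal elutriation and put back into culture. RNA was sequenced every 2 h from 0 h to 46 h, with 1 library for each of the 24 time points, no treatment and no replicate. The study named 16 h and 18 h as irregular time points, at which transcript levels across the transcriptome depart from those of neighbouring samples, and 32 h as a milder case. Every value below is therefore that of a single library.

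RNA helicases use ATP to unwind or remodel RNA and to strip proteins from it. Both families share a helicase core with conserved motifs, and motif II, which binds and hydrolyses ATP, spells Asp-Glu-Ala-Asp in DEAD-box and Asp-Glu-Ala-His in DEAH-box proteins. Members work at nearly every step in the life of an RNA: several drive the rearrangements of the spliceosome, many are needed in the nucleolus to process ribosomal RNA, and others act in messenger RNA export, translation and decay.

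A search of the coding sequences for the codons of motif II, downstream of the codons of the ATP-binding motif I, described how far the names hold. It found the DEAD codons in 26 of the 33 DDX genes and the DEAH codons in 8 of the 15 DHX genes, against 13 and 21 of the 10302 other coding genes of the table. DDX21, DDX39A, DDX39B, DDX50 and DDX52 had another residue in the third position before Asp, and DHX9, DHX29, DHX30, DHX34, DHX36 and DHX57 had another residue there before His. DDX11, a DNA helicase of sister chromatid cohesion, carried the DEAH codons in spite of its name. In DDX60L and DHX32 no such block was found, which says only that the letters searched were not in these windows.

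The windows below are 48 bases of exonic coding sequence, 5′ to 3′ on the coding strand, from GENCODE 29 transcripts (GRCh38), with the 12 bases of the motif II codons in capitals. They are shown for members whose levels the results turn on and for the most alike pairs. The first capital codon is codon 222 in DDX10, 529 in DDX46, 248 in DDX5, 325 in DDX17, 702 in DHX29, 652 in DHX38, 511 in DHX9, 286 in DDX28, 195 in DDX39A, 196 in DDX39B, 241 in DDX19A and 247 in DDX19B, counted from 1 at the start codon.
DDX10: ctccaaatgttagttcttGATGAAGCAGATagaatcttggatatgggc
DDX46: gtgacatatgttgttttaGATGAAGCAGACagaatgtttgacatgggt
DDX5: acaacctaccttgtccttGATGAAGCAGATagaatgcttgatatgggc
DDX17: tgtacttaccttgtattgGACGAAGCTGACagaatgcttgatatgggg
DHX29: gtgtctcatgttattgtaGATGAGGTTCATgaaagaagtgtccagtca
DHX38: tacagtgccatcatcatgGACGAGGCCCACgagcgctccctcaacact
DHX9: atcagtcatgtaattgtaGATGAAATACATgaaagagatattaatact
DDX28: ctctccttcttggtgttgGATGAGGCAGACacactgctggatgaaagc
DDX39A: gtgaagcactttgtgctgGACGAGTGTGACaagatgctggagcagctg
DDX39B: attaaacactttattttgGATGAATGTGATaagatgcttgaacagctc
DDX19A: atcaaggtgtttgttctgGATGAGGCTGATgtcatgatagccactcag
DDX19B: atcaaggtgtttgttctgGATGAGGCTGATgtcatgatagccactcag

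DDX19A and DDX19B had the same 48 bases, and DDX39A and DDX39B differed at 12 of 48. Over the whole coding sequence DDX19A and DDX19B were identical at 92.9% of aligned bases, DDX39A and DDX39B at 79.8%, DDX21 and DDX50 at 63.8%, and DDX5 and DDX17 at 57.6%. Reads may not be assigned with certainty between close copies. Of the stretches of 50 bases in the transcripts of DDX19B, 30.4% also occur in another gene, mainly the gene AC012184.2, and so do 22.3% of those of DDX19A. The shares were 33.9% for DDX47 (mainly APOLD1), 26.7% for DDX39B (mainly the readthrough gene ATP6V1G2-DDX39B), 17.7% for DDX11 (mainly the pseudogene AC009533.1) and 14.4% for DHX40 (mainly its pseudogene DHX40P1). How far this affects the levels of these genes was not measured.

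As a check of the labelled cell line, the 16 erythroid marker genes were all in the table, with a summed level of 6505 to 9802 FPKM when 16 h and 18 h are left out. Of 7 fibroblast markers, COL1A2 alone was in the table (1.70 to 3.94 FPKM). The libraries at 16 h and 18 h stood apart. They listed 102 and 115 genes at 0, against 4 to 58 at the other time points, where the 58 belonged to 32 h and the next highest, 35, to 6 h. Their FPKM summed to 566247 and 591309, against 456791 to 520382, and the erythroid markers summed to 5020 and 4639 FPKM. The nuclear RNA MALAT1 was at 11073 FPKM or more there and at 556 to 1593 FPKM elsewhere. Of the 5 nuclear long RNAs in the table it had the largest deviation (3.59). TUG1 was at 1.19, MEG3 at 0.12, OIP5-AS1 at -0.01 and NEAT1 at -0.78, in log2 units from the flanks. The depth of the libraries is unknown, since FPKM give no counts. What part these library differences have in the results was not tested.

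Over all 24 time points, all 48 helicases had a mean of at least 1 FPKM, 43 of at least 10 FPKM and 11 of at least 100 FPKM. None was listed at 0 at any time point. With 16 h and 18 h left out, the mean of DDX46 was 86.5 FPKM in place of 101, and that of DHX40 9.83 FPKM in place of 10.3. In bulk RNA such as this, fewer cells with a transcript and less of it per cell cannot be told apart. FPKM are per transcript length, so levels can be set side by side between genes. The most abundant was DDX5, a coactivator of transcription that also takes part in microRNA processing, with a lowest level of 292 FPKM (44 h), a median of 344 and a highest of 545 (0 h) over the 22 time points. DDX39B, a spliceosome and messenger RNA export factor, ranged from 270 to 488 FPKM with a median of 335. These ranges overlapped, so their order is that of the means over 24 time points alone (400 FPKM for DDX5 and 341 for DDX39B). DDX21, a nucleolar helicase of ribosomal RNA synthesis and processing, ranged from 221 to 296 FPKM with a median of 254.

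DDX1, part of the tRNA ligase complex, followed at 167 to 210 FPKM, with a median of 184. DHX9, which resolves double-stranded RNA and RNA-DNA hybrids, was at 139 to 231 FPKM, with a median of 185. DDX1 and DHX9 cannot be ordered, since the range of DHX9 contains that of DDX1. The remaining members with a mean of at least 100 FPKM over all 24 time points were the splicing helicases DHX15 and DDX46, DDX3X, DDX17, DDX39A and DDX18. Without 16 h and 18 h DDX46 had a mean below that. At the low end, DDX60L, the only member of the antiviral sensing list in the table, ranged from 0.722 FPKM (6 h) to 2.15 FPKM (44 h), with a mean of 1.41 over all 24. DDX53, an X-linked gene known for expression in testis and tumours, was at 1.06 to 1.85 FPKM, with a median of 1.59, and DHX32 at 5.35 to 11.6 FPKM, with a median of 7.65. The order of DDX60L and DDX53 was not separated by their ranges.

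The range of each helicase outside 16 h and 18 h was described for the members only and was not set beside that of all genes. The ratio of the highest to the lowest of 22 values had a median of 1.64 over the members, from 1.24 for DDX18 to 3.10 for DDX10. The spread of a gene was taken as the SD of each library's difference from its 2 neighbours' mean. It was 0.045 log2 units in DHX9 and 0.355 in DDX10, with a median of 0.121. The heatmap of all members by time shows these levels, with 16 h and 18 h standing out and paler columns at 6 h and 32 h.

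**Figure D1:**
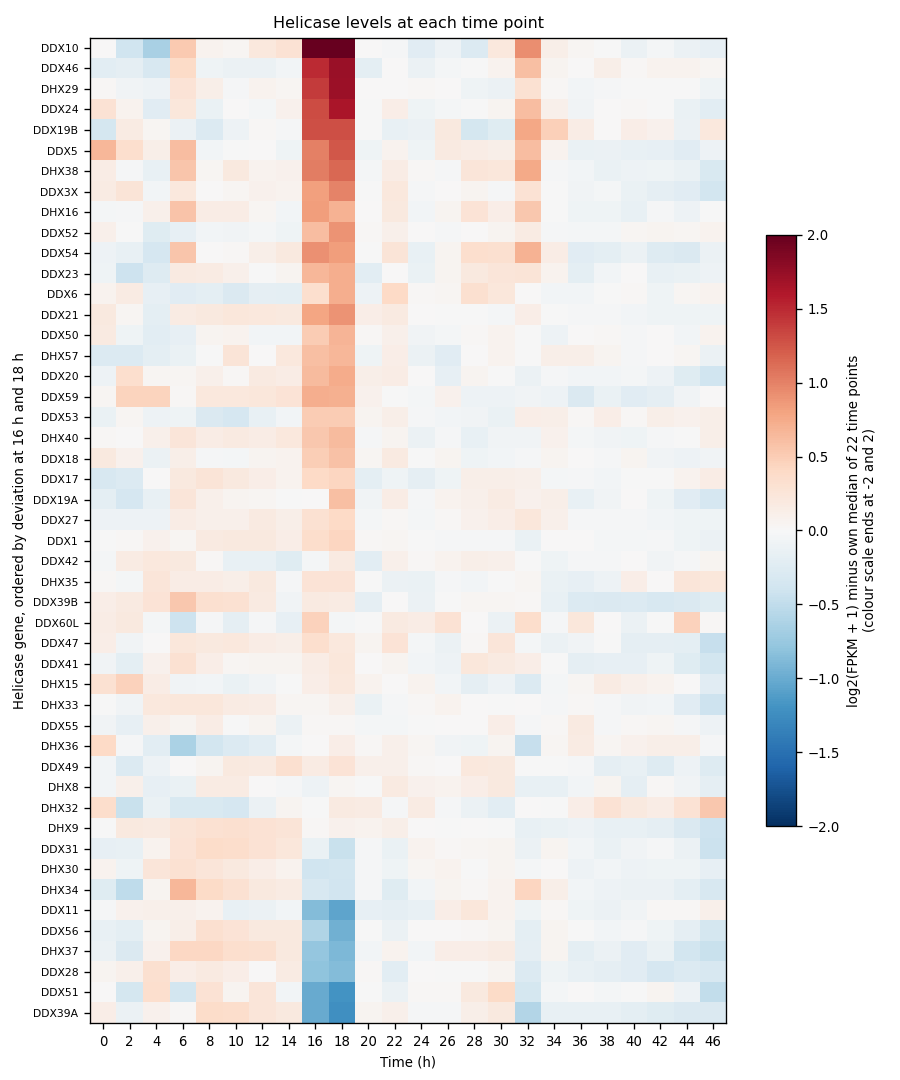
Level of each of the 48 helicases (rows) at each time point in h (columns), as log2(FPKM + 1) minus the gene's own median with 16 h and 18 h left out. Red is above and blue below that median. Rows are ordered by the deviation at 16 h and 18 h, and DDX10 is at the top and DDX39A at the bottom.

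How the helicases behaved at the irregular time points was measured as how far the 16 h and 18 h libraries lay, on average, from a line drawn through 14 h and 20 h. Values are in log2(FPKM + 1), a scale that compresses changes of weakly expressed genes. There is no test, as these are 2 single libraries. Of the 48 members, 7 stood at least 2-fold above the flanks and 2 at least 2-fold below. Of all 12253 genes tested, 8.95% stood above and 7.11% below. The median deviation was 0.31 for the members and 0.14 for all genes. It was 0.20 and 0.03 with each time point centred on its median, and 0.10 and -0.06 with upper-quartile scaling. Centring shifts every gene by the same amount, so the difference between members and all genes is fixed there by construction. The split of 7 above and 2 below became 6 and 4 with centring, 5 and 6 with upper-quartile scaling, and 8 and 0 with a GC trend removed. In all genes it was 1097 and 871, 802 and 1126, 580 and 1298, and 671 and 505.

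The largest excess was in DDX10, a helicase of small ribosomal subunit assembly. At 14 h it read 39.3 FPKM, and 32.0 FPKM at 20 h, while 16 h gave 162 FPKM and 18 h 182 FPKM, a deviation of 2.24, or 4.73-fold. The 22 other values of DDX10 lay between 20.0 and 61.8 FPKM, so both irregular libraries were above all of them. DDX46, which remodels the U2 particle early in spliceosome assembly, went from 82.6 FPKM at 14 h to 242 and 286 FPKM and back to 74.5 FPKM at 20 h (deviation 1.73). DHX29, needed for scanning of structured messenger RNA leaders, read 21.7, 57.1, 71.7 and 21.3 FPKM at the same 4 time points (deviation 1.53).

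DDX24, a nucleolar helicase, was at 66.3, 156, 196 and 62.4 FPKM (deviation 1.43). DDX19B, which releases messenger RNA at the nuclear pore, was at 8.02, 21.6, 21.4 and 8.16 FPKM (deviation 1.31). In each of DDX46, DHX29, DDX24 and DDX19B both irregular libraries exceeded all 22 others. The remaining 2 members past 2-fold were DDX5 (1.21), with 693 and 811 FPKM, and DHX38 (1.06), the helicase of the second step of splicing, with 72.9 and 79.4 FPKM. Both missed 2-fold with upper-quartile scaling (0.98 and 0.83), as did DDX5 with a GC trend removed (0.89) and DHX38 with centring (0.95).

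Below the flanks stood DDX39A, the export paralogue of DDX39B, which read 137 and 125 FPKM at the flanks and 59.4 and 50.9 FPKM between them (deviation -1.24). DDX51, a helicase of large ribosomal subunit assembly, read 18.0, 8.87, 7.66 and 18.6 FPKM (deviation -1.06). DDX28, which helps to build the mitochondrial ribosome, was at 12.8, 6.09, 5.78 and 11.6 FPKM (deviation -0.93). DHX37, of the small ribosomal subunit, was at 23.6, 11.5, 10.5 and 19.6 FPKM (deviation -0.91), and DDX56, of the large subunit, at 83.1, 47.3, 36.7 and 72.3 FPKM (deviation -0.88). In all 5 genes both irregular libraries lay below all 22 others. With a GC trend removed at each time point, the deviation of DDX39A was -0.95 and that of DDX51 -0.70, so neither passed 2-fold.

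**Figure D2:**
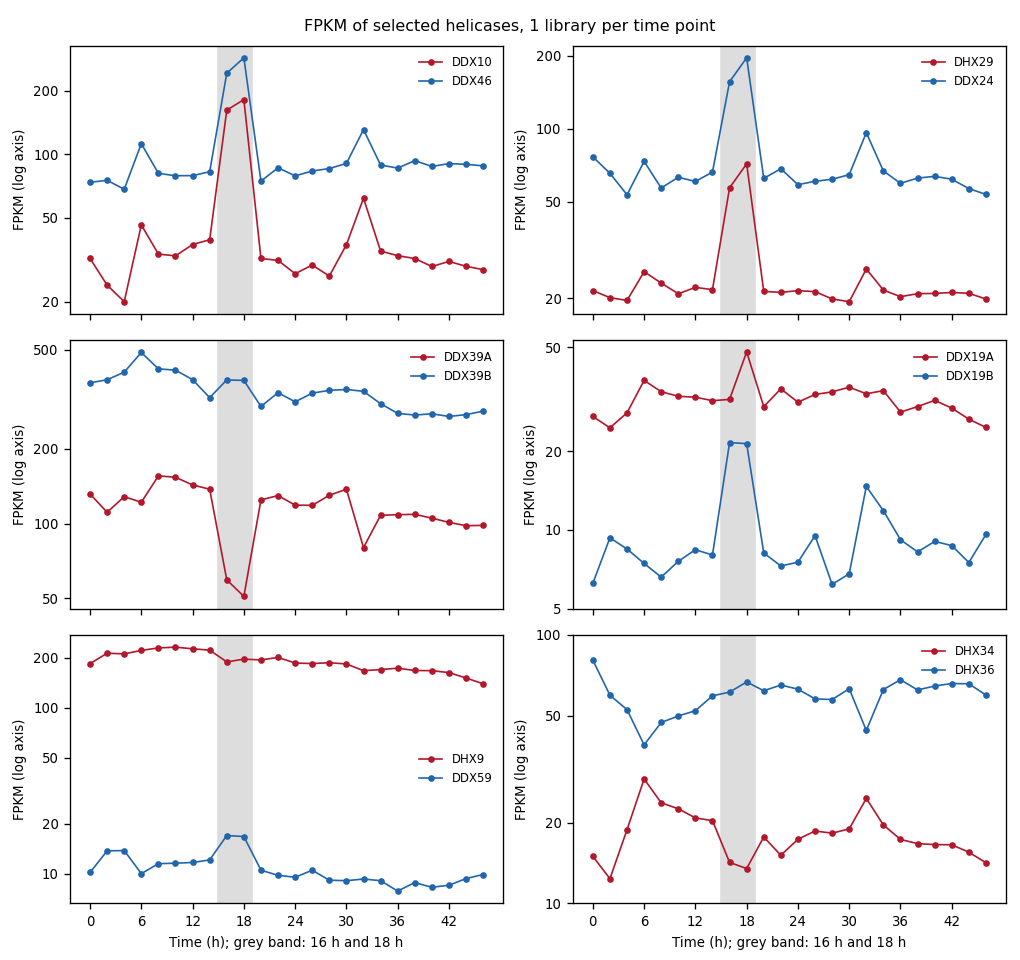
FPKM (log axis) against time in h for 12 helicases in pairs, 1 point for each library, with 16 h and 18 h in the grey band. DDX10, DDX46, DHX29, DDX24, DDX19B and DDX59 peak in the band and DDX39A dips in it. With the band left out, DHX9 and DDX59 are lower on average on the second day than at the same hours of the first. DHX9 is highest at 10 h. DHX34 and DHX36 move against each other.

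The same deviation at the 16 other consecutive pairs of time points served as reference. At none of those pairs did any helicase reach 2-fold, where at most 0.808% of all genes stood above and 0.645% below. At 16 h and 18 h, 29 members lay above all 16 of their own reference values, 9 below and 10 within, against 43.6% above and 28% below in all genes. The 9 below were DDX11, DDX28, DDX31, DDX39A, DDX51, DDX56, DHX9, DHX30 and DHX37. The 10 within were DDX41, DDX47, DDX49, DDX55, DHX8, DHX15, DHX32, DHX33, DHX34 and DHX36. Of all 24 values of a gene, the highest was at 16 h or 18 h in 27 members (56.2%, against 39.4% of all genes) and the lowest in 8 (16.7%, against 27.2%).

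Helicases of the same process did not move as a block. Of the 12 splicing helicases, 11 lay above their flanks, from -0.02 in DHX8 to 1.73 in DDX46, as did 36 of all 48 members (75%) and 58.1% of all genes. With upper-quartile scaling 9 of the 12, 29 of the 48 and 46.2% of all genes did. DDX23 of the U5 particle was at 0.77, DHX16 at 0.79, DDX20 of the SMN complex at 0.56, DHX40 at 0.50, DDX42 and DDX39B at 0.30 and 0.29, DHX35 at 0.29, DDX41 at 0.17 and DHX15 at 0.14. The 16 helicases of ribosome assembly spread from -1.06 to 2.24 with a median of 0.25, and 12 of them lay above. Between DDX24 and DDX51 came DDX52 (0.78), DDX54 (0.78), DDX21 (0.68), DDX50 (0.61), DDX18 (0.50), DDX27 (0.31), DDX47 (0.18), DHX33 (0.12), DDX55 (0.10), DDX49 (0.01) and DDX31 (-0.39).

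Both mitochondrial helicases were below, DDX28 and also DHX30 (-0.42). In translation and decay, DDX3X stood at 0.87, DDX6, a helicase of decapping and repression, at 0.69, DHX36, which unfolds G-quadruplexes, at 0.08 and DHX34, of nonsense-mediated decay, at -0.43. Of the remaining members, DDX17 was at 0.47, DDX1 at 0.31, DHX9 at -0.11, DDX11 at -0.85, DDX53 at 0.51, DDX60L at 0.29, DDX59 at 0.54, DHX57 at 0.57, DHX32 at -0.03 and DDX19A at 0.35.

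At 6 h and at 32 h no member deviated 2-fold from the mean of its neighbours, where 0.571% and 0.449% of all genes stood above and 0.865% and 1.01% below. The order of the helicases at 16 h and 18 h partly recurred in these libraries, which are separate samples, as did that of all genes (correlations below). The 7 members past 2-fold at 16 h and 18 h were all higher than their neighbours at 32 h, by 0.35 (DHX29) to 0.77 (DDX10), and 6 of the 7 were at 6 h, the exception being DDX19B at -0.01. The 2 below, DDX39A and DDX51, were lower at both. DDX39A was at -0.60 at 32 h and -0.21 at 6 h, and DDX51 at -0.52 and -0.68. Of all 48 members, 25 were higher than their neighbours at 32 h and 29 at 6 h. How many of all genes past 2-fold recurred in this way was not counted.

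DDX10 read 46.2 FPKM at 6 h between 20.0 and 33.6 FPKM, and 61.8 FPKM at 32 h between 37.2 and 34.7 FPKM. DDX46 read 112 FPKM at 6 h between 68.2 and 81.1 FPKM, and 131 FPKM at 32 h between 90.4 and 88.9 FPKM. DDX39A read 80.1 FPKM at 32 h between 137 and 108 FPKM. At 6 h, 17 members lay above all 16 of their own reference time points and 6 below, and at 32 h 14 and 9. In all genes the shares were 25.1% above and 11.4% below at 6 h, and 25.3% and 17.5% at 32 h. Among the members themselves that is 35.4% and 12.5% for 6 h, and 29.2% and 18.8% for 32 h.

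**Figure D3:**
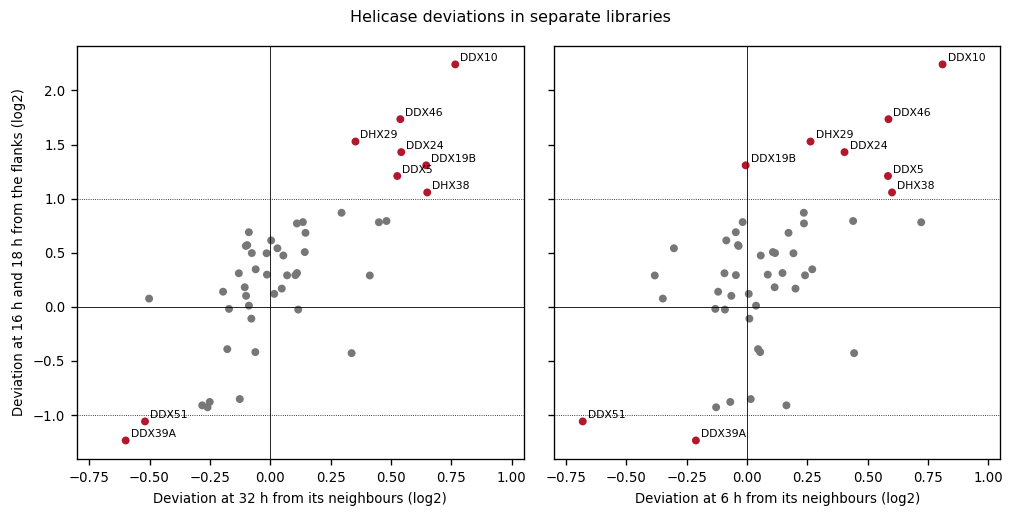
Deviation of each of the 48 helicases at 16 h and 18 h (vertical axis, log2) against its deviation at 32 h (left) and at 6 h (right, log2). Dotted lines mark 2-fold, and members past it are red and named. The 7 red points at the top are right of 0 at 32 h, and DDX39A and DDX51 are left of 0 in both panels.

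Across the 48 members the deviation at 16 h and 18 h correlated with that at 32 h with a Spearman rho of 0.76 (Pearson r 0.80), and with that at 6 h with a rho of 0.54 (r 0.60). Across all 12253 genes rho was 0.58 and 0.41. These are descriptions across genes of the same libraries, and genes are not independent replicates. The deviation at 16 h and 18 h also went with base composition. Its rho with the GC content of the transcript was -0.46 over the members (n = 48) and -0.56 over the 12148 genes with a value, and with transcript length 0.31 and 0.32. DDX10 has 40.2% GC and DDX46 38.7%, and DDX39A 57.2% and DDX51 58.7%. DDX54 (60.6% GC), DHX16 (56.6%) and DHX38 (56.6%) were above their flanks at high GC. At 32 h rho with GC was -0.18, and at 6 h 0.13. The part of base composition in the deviations was not tested.

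The closest pairs did not always share their course. The log2 ratio of DDX39B to DDX39A was 1.22 to 2.09 over the 22 other time points (median 1.42, SD 0.22), where the highest belonged to 32 h, and 2.67 and 2.89 at 16 h and 18 h. That of DDX19A to DDX19B was 1.18 to 2.45 (median 1.86, SD 0.35) with its lowest value at 32 h, and 0.55 and 1.17 at 16 h and 18 h. Both ratios lay outside the range of the 22, that of DDX19A to DDX19B at 18 h narrowly. The ratio of DDX21 to DDX50 stayed at 2.78 to 3.28 (SD 0.13) and was 3.21 and 3.14 at 16 h and 18 h, within the range. The ratio of DDX17 to DDX5 ran from -2.37 to -1.06 and was -2.0 and -2.2, also within it.

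Whether the helicases drifted over the series was tested as a slope per 24 h on log2(FPKM + 1), with a 24 h cosine and sine in the model, on 22 time points, with 16 h and 18 h left out. By limma, adjusted over 12253 genes, 17 of the 48 members (35.4%) fell and 2 rose, while 29 were not called. Of all genes, 12.3% fell and 19.6% rose. The median slope was -0.03 for the members and 0.02 for all genes. With each time point centred on its median, 18 members fell and none rose, and in all genes 2239 fell and 1852 rose in place of 1512 and 2402. In that setting the 2 rises had limma adjusted p of 0.051 (DDX46) and 0.124 (DDX53), and all 17 falls stayed called. With upper-quartile scaling 17 members fell, of which 16 were among these 17.

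DHX9 had the steepest fall. Its level was 184 FPKM at 0 h, reached 231 FPKM at 10 h and ended at 139 FPKM at 46 h. It averaged 213 FPKM over 10 hours of the first day (16 h and 18 h left out) and 171 FPKM over the same hours of the second, and was lower in the second at 9 of the 10. The slope was -0.30 ± 0.04 (SE, n = 22 time points), a factor of 0.811 per 24 h, with a limma adjusted p of 1.06e-05. DDX39A averaged 134 and 111 FPKM in the 2 days (slope -0.27 ± 0.07, limma adjusted p = 0.0070), lower on the second day at 7 of 10 hours. DDX59 averaged 11.5 and 9.23 FPKM (slope -0.26 ± 0.05, limma adjusted p = 0.00097), lower at 9 of 10.

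DDX39B averaged 381 and 309 FPKM (slope -0.25 ± 0.04, limma adjusted p = 0.00013) and DDX28 12.3 and 10.4 FPKM (slope -0.23 ± 0.04, limma adjusted p = 0.00031). These 2 were the members among the falls that were lower on the second day at all 10 hours. The other falls, with smaller slopes down to -0.11, were DDX47, DHX37, DDX20, DHX15, DDX31, DDX3X, DDX21, DHX33, DDX56, DHX30, DDX1 and DHX40. In 13 of the 48 members the lowest of the 22 values was at 44 h or 46 h (27.1%, where all genes have 14.5%).

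The rises were small. DDX46 averaged 81.2 and 91.4 FPKM (slope 0.20 ± 0.07, limma adjusted p = 0.030), higher on the second day at 9 of 10 hours, and DDX53 1.45 and 1.66 FPKM (slope 0.12 ± 0.04, limma adjusted p = 0.038), higher at 7. When all 24 time points entered the fit, the slope of DDX46 was -0.10 and was not called. DDX46 lost its call without 10 h, 12 h or 32 h and DDX53 without 0 h, 8 h, 10 h, 12 h, 14 h, 32 h, 34 h or 38 h (without 10 h, 12 h or 32 h no member rose). DDX53 is at a level of 1 to 3 FPKM, where the pseudocount compresses changes. DDX19B (slope 0.18 ± 0.10), DHX32 (0.16 ± 0.06) and DDX6 (0.14 ± 0.06) had slopes of a like size that missed the threshold (limma adjusted p of 0.162, 0.060 and 0.074).

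**Figure D4:**
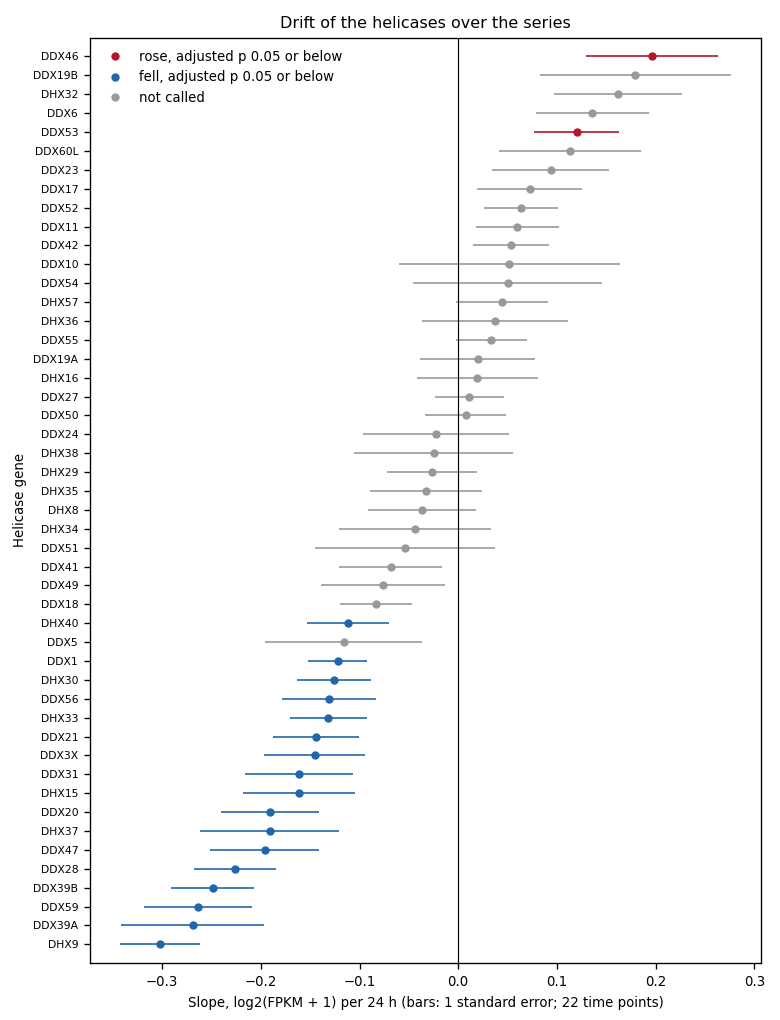
Slope of each of the 48 helicases in log2(FPKM + 1) per 24 h (points, with bars of 1 SE, 22 time points). Blue points fell and red points rose at a limma adjusted p of 0.05 or below, and grey points were not called. The 17 blue points lie between -0.30 and -0.11, and DHX9 is at the bottom.

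By role, the falls were spread over 6 of the ribosome assembly helicases (of 16), 4 of the splicing helicases (of 12) and both mitochondrial ones, with 1 each in export (of 3), translation and decay (of 5), transcription and microRNA (of 3), DNA and tRNA (of 2) and the members in no list (of 3). In ribosome assembly the largest were DDX47, DHX37 and DDX31, with slopes of -0.20, -0.19 and -0.16, and in splicing DDX39B, DDX20 and DHX15, with -0.25, -0.19 and -0.16. In the mitochondrial pair DHX30 had -0.13 beside DDX28. DDX3X (-0.15) was the fall in translation and decay and DDX1 (-0.12) that in DNA and tRNA. The single members of the sensing and germline lists, DDX60L and DDX53, had positive slopes (0.11 and 0.12), and that of DDX60L was not called (limma adjusted p = 0.242).

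The limits of the test are that single libraries stand in for replicates and that neighbouring libraries may share errors. The lag-1 autocorrelation of the residuals had a median of 0.13 over the members and 0.02 over all genes. Over the called falls it ran from -0.31 (DDX28) to 0.50 (DHX15), and it was 0.40 in DHX9. The limma test takes the libraries as independent, so its p-values may be too small where this value is positive. Pairing each hour with the same hour of the next day, as a block, left 6 falls (DHX9, DDX39B, DDX59, DDX28, DDX1 and DDX47) and 1 rise (DHX32) of 48 members, where 6.80% of all genes fell and 12.6% rose. With all 24 time points 12 members fell, against 8.83% of all genes. Leaving out any 1 of the 22 time points kept the call of 11 falls. DHX40 lost it without any 1 of 16 of them, DHX37 of 13 and DDX56 of 10. DDX3X lost it without 0 h, 2 h, 12 h, 14 h, 20 h, 30 h, 44 h or 46 h, DHX15 without 0 h, 2 h, 4 h, 28 h, 32 h or 46 h, and DDX31 without 10 h, 12 h, 14 h, 32 h or 46 h.

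Other genes of RNA metabolism, from lists named by function, gave a frame for the drift. Of 49 partner proteins of the helicases in the table, 14 fell and 1 rose, with a median slope of -0.06. Among them, THOC6 and ALYREF of the TREX export complex, to which DDX39B belongs, had slopes of -0.39 and -0.35, and GEMIN8 and GEMIN4 of the SMN complex, to which DDX20 belongs, -0.26 and -0.17. THOC7 of TREX (-0.12) and SMN1 of the SMN complex (-0.16) also fell. Neither complex moved as a whole. THOC1 (0.02), THOC2 (0.13), THOC3 (-0.11) and SARNP (0.15) of TREX were not called. Nor were GEMIN2, GEMIN5, GEMIN6 and GEMIN7 of the SMN complex, with slopes from -0.04 to 0.004. THOC5, also of TREX, was the rise, with 0.29. The scaffold protein PRPF8 of the spliceosome fell with -0.31. Of 18 other RNA helicases, EIF4A3 of the exon junction complex (-0.36) and EIF4A1, the helicase of translation initiation (-0.16), fell, and SKIV2L was among those that rose (0.14). Of 14 interferon-related genes in the table (of 31 on the list), 8 rose, where 19.6% of all genes rose. IFI6, IFITM3 and STAT2 had slopes of 0.51, 0.42 and 0.34. IFI6 was near the floor, at 0.63 to 3.26 FPKM with 16 h and 18 h left out.

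At 16 h and 18 h, 2 of the 18 other RNA helicases stood 2-fold above, HELZ (1.45) and AQR (1.26), and 2 below, MOV10 (-1.11) and SKIV2L (-1.06). Of the 49 partners 8 stood above, among them the export receptor NXF1 (1.64) and RBM8A (1.64), and 2 below, GEMIN7 (-1.24) and EIF4H (-1.01).

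Order in time over a 24 h period was ranked by the JTK statistic on all 24 time points, with permutation p-values adjusted over 12285 genes. It called 11 of 48 helicases (22.9%), against 13% of all genes. The count depended on the draw of orderings. It was 9, 11 and 9 in 3 other draws of 100000, because the permutation adjusted p of DDX42 and DDX56 lay between 0.049 and 0.051 over the draws. Without 16 h and 18 h 12 members were called, against 14.7% of all genes, and the 2 sets shared 5: DHX34, DHX57, DHX36, DHX32 and DDX42. The 6 lost were DDX11, DDX28, DDX53, DDX56, DHX30 and DHX37, and the 7 gained DDX5, DDX23, DDX27, DDX39B, DDX41, DHX16 and DHX33. Of the 11 called with all time points, 7 had the highest or lowest of their 24 values at 16 h or 18 h, as did 35 of the 48 members (72.9%) and 66.5% of all genes.

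The 5 ranked highest were DHX34, DHX57, DDX28, DHX36 and DHX30. DHX34 climbed from 12.3 FPKM at 2 h to 29.1 FPKM at 6 h, and from 15.1 FPKM at 22 h to 24.6 FPKM at 32 h, with a fitted peak at 8 h (permutation adjusted p = 0.0058, and 0.0070 without 16 h and 18 h). Its 2 highest values were at 6 h and 32 h, libraries that list many genes at 0. DHX36 ran the other way, from 80.6 FPKM at 0 h down to 38.9 FPKM at 6 h, and from 63.0 FPKM at 30 h down to 44.1 FPKM at 32 h, with a fitted peak at 20 h (permutation adjusted p = 0.029, and 0.037 without 16 h and 18 h). Its 2 lowest values were at 6 h and 32 h. DHX57 had a fitted peak at 14 h (permutation adjusted p = 0.015, and 0.025 without 16 h and 18 h), with 10.5 to 15.7 FPKM over the 22 time points and 20.2 and 21.3 FPKM at 16 h and 18 h.

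DDX28 (14.5 FPKM at 4 h, 8.83 at 42 h) and DHX30 (76.5 FPKM at 6 h, 55.4 at 46 h) both had a fitted peak at 6 h. Their permutation adjusted p of 0.025 and 0.034 became 0.087 and 0.096 without 16 h and 18 h, where both were low. Both were also among the falls in the drift test, and of the 11 JTK calls 5 were called in that test. With a linear trend in time removed, the permutation adjusted p of DDX28 was 0.057, and 0.342 when 16 h and 18 h were also left out. The fitted peak of DHX32 was at 18 h (0.041 with and 0.037 without them) and that of DDX42, a U2 particle helicase, at 2 h (0.049 and 0.020). DDX39B, lowest in permutation adjusted p among the gained at 0.0083, was not called with all time points (0.053).

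Single libraries decided much of this count. Without 4 h, 6 h or 8 h 3 members (6.25%) were called, below the 9.30%, 7.63% and 8.85% of all genes. Without 10 h, 28 h or 30 h 5 (10.4%) were called, against 9.24%, 11.6% and 11.8% of all genes. Without 26 h or 40 h 6 (12.5%) were called, against 10.9% and 9.96%. Without 16 h, 18 h, 36 h, 42 h or 44 h 7 (14.6%) were called, against 12.6%, 12.2%, 11.9%, 11.3% and 10.8%. DHX34 and DHX57 each kept the call in 33 of 35 alternatives, and lost it at periods of 20 h and 28 h. The other calls were kept in fewer, from 7 of 35 (DDX56) to 25 (DDX28 and DHX36), with 23 for DHX32 and 11 for DDX42. Among the alternatives in which DHX36 lost it were those without 6 h (permutation adjusted p = 0.055) and without 32 h (permutation adjusted p = 0.052). In the deposited cleaned table, whose values are scores after Z-scoring and quantile normalization by the authors, 7 members (14.6%) and 11.6% of all genes were called. At a period of 20 h 3 members (6.25%) and 3.74% of all genes were called. At 28 h 0 members and 3.13% of all genes were called. With a linear trend in time removed, 9 members (18.8%) and 13.5% of all genes were called. Leaving out 16 h and 18 h as well gave 8 (16.7%) and 8.98%.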

How the data were processed

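RNA of K562 cells at 24 time points (0 h to 46 h, 1 library each) was sequenced, and samples were assigned to times from their labels. The authors made the deposited FPKM values with STAR, Cufflinks and Cuffnorm on GRCh37 (per the labels' processing notes; versions not given in the sources used here). The second table, a score per gene and time point, was deposited by the authors after Z-scoring and quantile normalization, and served as an alternative only. All columns were used. Counts and depth are not given, so no count model was used and the counting error is unknown. Every library is single, and p-values measure the spread between time points, which may be technical.

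Gene type, transcripts, GC content and length came from GENCODE 29 (GRCh38), to which 12180 of 12285 identifiers and all 48 members matched. As its build differs from the authors', no coordinates are printed. Identity was taken between coding sequences instead of proteins, since no protein table was used here. Motif II was sought as the codons of Asp-Glu, any residue and Asp or His, within 450 codons downstream of the codons of motif I. Shared sequence was counted in stretches of 50 bases.

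JTK compared each gene with 12 phases of a 24 h cosine by Kendall's S, keeping the highest, with 100000 permutations of the time points and Benjamini-Hochberg adjustment over 12285 genes. Drift was fitted in limma 3.58.1 (R 4.3.3) on log2(FPKM + 1), for the 12253 genes averaging 1 FPKM or more, two-sided, adjusted over all of them. Calls were made at an adjusted p of 0.05 or below. Deviations carry no test. Both tests were checked on simulated data with independent noise of the same SD in every gene. The simulation held no irregular libraries and no correlation between neighbouring time points, so it does not cover these features of the data. Alternatives were other time points, scalings, pseudocounts, filters and periods. Of these, other draws of orderings, a trend removed without 16 h and 18 h, and a drift without 6 h and 32 h were chosen after seeing the data.

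Genes with values in full were the 5 highest and 3 lowest in mean FPKM, up to 5 largest called rises and falls, the 5 highest JTK ranks, up to 5 largest deviations in each direction, the sensing list and the 4 most alike pairs, and in other lists up to 3 called with the largest change. Other genes named were chosen after their values were seen. The members and gene lists were chosen with earlier results of these data known. A few genes of the lists are not reported here.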

Additional observations from a re-analysis of the deposited data

How the results depend on the processing

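Of the counts of helicases, 11 called by JTK became 7 in the deposited cleaned table, 3 at a 20 h period and 0 at 28 h, and 3 to 12 when 1 time point was left out. The 17 falls became 6 with matched hours as a block and 12 to 16 with 1 time point left out, where 10.1% to 14.5% of all genes fell. In place of the 2 rises (DDX46 and DDX53) there was 1, DHX32, with all 24 time points and with matched hours as a block. There was 1, DDX46, with a filter at a mean of 10 FPKM (which leaves DDX53 out), with a GC trend removed and without 6 h and 32 h. There were 0 with each time point centred on its median, and 0 to 3 with 1 time point left out, where 17.6% to 22.1% of all genes rose. With all 24 time points the slope of DDX46 was -0.097 and that of DDX56 0.0047, the reverse of their signs without 16 h and 18 h. At a 1.5-fold threshold the members above at 16 h and 18 h became 15 and those below 6. At 6 h 4 stood above and 1 below, and at 32 h 3 and 1, in place of 0. The share of all genes past 1.5-fold was not counted, so these counts cannot be read as particular to the helicases. The 2 below at 16 h and 18 h became 4 with centring, 6 with upper-quartile scaling, 0 with a GC trend removed and 1 at 16 h alone. The cause of these changes was not tested. Samples carry no replicate numbers, so no pairing other than the matched hours was fitted. Without read counts, what depth limits cannot be given.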
